A study of Mus musculus with 12 samples.

Results

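The nitric oxide synthase Nos2 and the parts of the epithelial NADPH oxidases Duox2, Duoxa2, Nox1, Noxo1, Noxa1 and Cyba were followed in colonic intestinal epithelial cells. These 7 genes were taken by symbol from the 46517 genes in the count files, and all 7 were among the 12522 genes that passed the filter on low counts. The cells came from C57BL/6 mice aged 7 to 9 weeks, either wild type (WT) or Nfkb2-/- (knockout, KO), and the mice either received no treatment or received dextran sulfate sodium (DSS), an agent that damages the colon lining and is used to model colitis, for 48 h. Each of the 4 groups (WT untreated, WT under DSS, KO untreated, KO under DSS) held 3 samples, which the series describes as biological replicates. Nfkb2 encodes p100, the precursor of the NF-kB subunit p52. The labels name no promoter, Cre line or tissue restriction for the knockout, and the DSS dose is not given in the sources used here. The cells were shaken off the colon with EDTA, and most of them were CD45.2-negative and EpCAM-positive by flow cytometry, per the labels.

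Nos2 makes nitric oxide from arginine with the help of NADPH, and its transcript is strongly induced by inflammatory signals in epithelial cells and macrophages. Duox2 is a membrane enzyme that passes electrons from NADPH to oxygen and releases hydrogen peroxide at the gut surface, and it reaches the membrane only with its maturation factor Duoxa2. Nox1 is the superoxide-producing oxidase of the colon epithelium and needs the membrane partner p22phox, encoded by Cyba, the organizer Noxo1 and the activator Noxa1. Cyba also serves the phagocyte oxidase, whose catalytic subunit is Cybb.

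Duox2 and Duoxa2 lie head to head on chromosome 2, and Nox1 lies on the X chromosome. Their promoters are shown because each of these genes differed between the genotypes in at least 1 comparison below. The sequences are RefSeq's (GRCm38.p6), from 250 bases before to 50 bases after the start, written 5′ to 3′ on the strand of the gene. Duoxa2 is at chr2:122298650-122298949 (plus strand), Duox2 at chr2:122298178-122298477 (minus strand) and Nox1 at chrX:134111805-134112104 (minus strand).
Duoxa2: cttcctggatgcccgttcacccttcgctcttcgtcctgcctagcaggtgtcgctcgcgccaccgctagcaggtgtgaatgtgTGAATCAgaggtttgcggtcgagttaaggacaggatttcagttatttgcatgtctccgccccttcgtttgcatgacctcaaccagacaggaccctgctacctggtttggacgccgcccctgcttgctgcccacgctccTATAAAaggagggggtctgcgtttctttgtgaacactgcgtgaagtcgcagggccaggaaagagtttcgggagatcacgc
Duox2: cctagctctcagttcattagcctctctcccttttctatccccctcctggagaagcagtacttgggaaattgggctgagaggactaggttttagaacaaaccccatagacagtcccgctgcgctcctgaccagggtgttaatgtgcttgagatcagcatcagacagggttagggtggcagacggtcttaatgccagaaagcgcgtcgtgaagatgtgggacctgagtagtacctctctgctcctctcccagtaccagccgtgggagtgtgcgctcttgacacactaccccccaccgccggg
Nox1: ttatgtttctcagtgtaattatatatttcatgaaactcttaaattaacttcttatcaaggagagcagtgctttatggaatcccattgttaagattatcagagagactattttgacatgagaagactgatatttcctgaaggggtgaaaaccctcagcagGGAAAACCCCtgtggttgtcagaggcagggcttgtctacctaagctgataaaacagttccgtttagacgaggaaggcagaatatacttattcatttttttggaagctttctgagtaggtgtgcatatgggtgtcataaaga
Capitals mark motif matches: TGAATCA and the TATAAA box in Duoxa2, and a match to the NF-kB consensus in Nox1. The RefSeq starts of Duox2 and Duoxa2 are 673 bases apart and point away from each other. No annotated GENCODE transcript of Duox2 begins at its RefSeq start. The nearest begins 62 bases away, and the outermost annotated 5′ end lies 222 bases away. For Noxa1 and Cyba the nearest transcript starts were 56 and 10 bases from the RefSeq start. The RefSeq start of Nox1, base 134111854, is where 1 of 5 annotated GENCODE transcripts of the gene begins, and the outermost annotated 5′ end of the gene lies 110102 bases further upstream. Both strands were searched for the NF-kB consensus, TTCNNNGAA, GAAANNGAA, TGANTCA and TATAAA, and the capitals overlap no other match. In Duoxa2 the TGANTCA match spans -168 to -162 and the TATAAA match -30 to -25, counted from the start. The NF-kB consensus match in Nox1 spans -91 to -82. Noxa1 has 1 match to the NF-kB consensus at -249 to -240, while Duox2, Noxo1 and Cyba have no match to any of the 5 motifs in this window. Of 32851 promoters of the same length, 8.46% held the NF-kB consensus, 7.81% TGANTCA, 13.6% TATAAA, 8.3% TTCNNNGAA and 8.56% GAAANNGAA. Promoters of 6 of the 7 genes were matched. Nos2 was not matched. These matches describe letters only.

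The 12 libraries held 5595909 to 8117740 counts, and 3 counts, taken as the floor of detection, corresponded to 0.37 to 0.536 CPM, the count scaled to the library total. CPM values are scaled by TMM, a library size correction. Nfkb2 itself, the targeted gene, had 211 to 346 counts across WT and 87 to 143 across KO, a KO level of 40.1% of WT over 6 samples each. The difference in mean log2 CPM was -1.31 (two-sided exact permutation test, p = 0.00216, the smallest p that 924 arrangements allow), and no KO value reached a WT value. Of the 4584 exon bases of Nfkb2, 830 overlap exons of Psd and AC114539.1 on the opposite strand. Whether shared reads carried any of the Nfkb2 level in KO was not tested. The defining epithelial markers were detected in every sample, with a summed level of 15952 to 24650 CPM over 7 genes. Among these, Cdx2 (-1.52 in WT and -0.76 in KO, log2) and Krt20 (-1.33 and -1.34) fell under DSS in both genotypes, and Vil1 was lower in KO than in WT under DSS (-0.55). All 5 colonocyte markers fell under DSS in both genotypes, from sums of 8381 to 9646 CPM to 1790 to 2146 in WT and from 4989 to 5428 to 2154 to 2692 in KO. Goblet cell markers summed to 18425 to 29034 CPM without and 14383 to 16788 with DSS in WT, and to 12992 to 14565 without and 25698 to 29893 with DSS in KO. Of the 5 goblet markers, only Clca1 passed as lower under DSS in WT, while Clca1, Fcgbp and Muc2 passed as higher in KO. Between untreated genotypes Clca1 and Muc2 passed as lower in KO, while Zg16 (0.76) and Tff3 (0.58) leaned higher without passing. Among colonocyte markers, Car1 passed as lower in untreated KO (-1.47) and Car4 as higher (0.68), with a list median of 0.02. The part of these shifts among epithelial markers in the values of the 7 genes was not tested. The labels number all WT libraries before all KO libraries, so library order and genotype cannot be told apart. The p-values measure the spread between these samples.

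The 7 genes did not move as a unit. DSS raised Nos2, Duox2 and Duoxa2 in WT cells. In KO cells DSS raised Nos2 and Duoxa2 and lowered Nox1. Without treatment, KO cells held more Nos2 and more Nox1 than WT cells, and under DSS they held less Duox2 and less Duoxa2. Noxo1, Noxa1 and Cyba passed the threshold in none of the comparisons (edgeR quasi-likelihood test, Benjamini-Hochberg adjusted p under 0.05 over all genes tested).

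**Figure D1:**
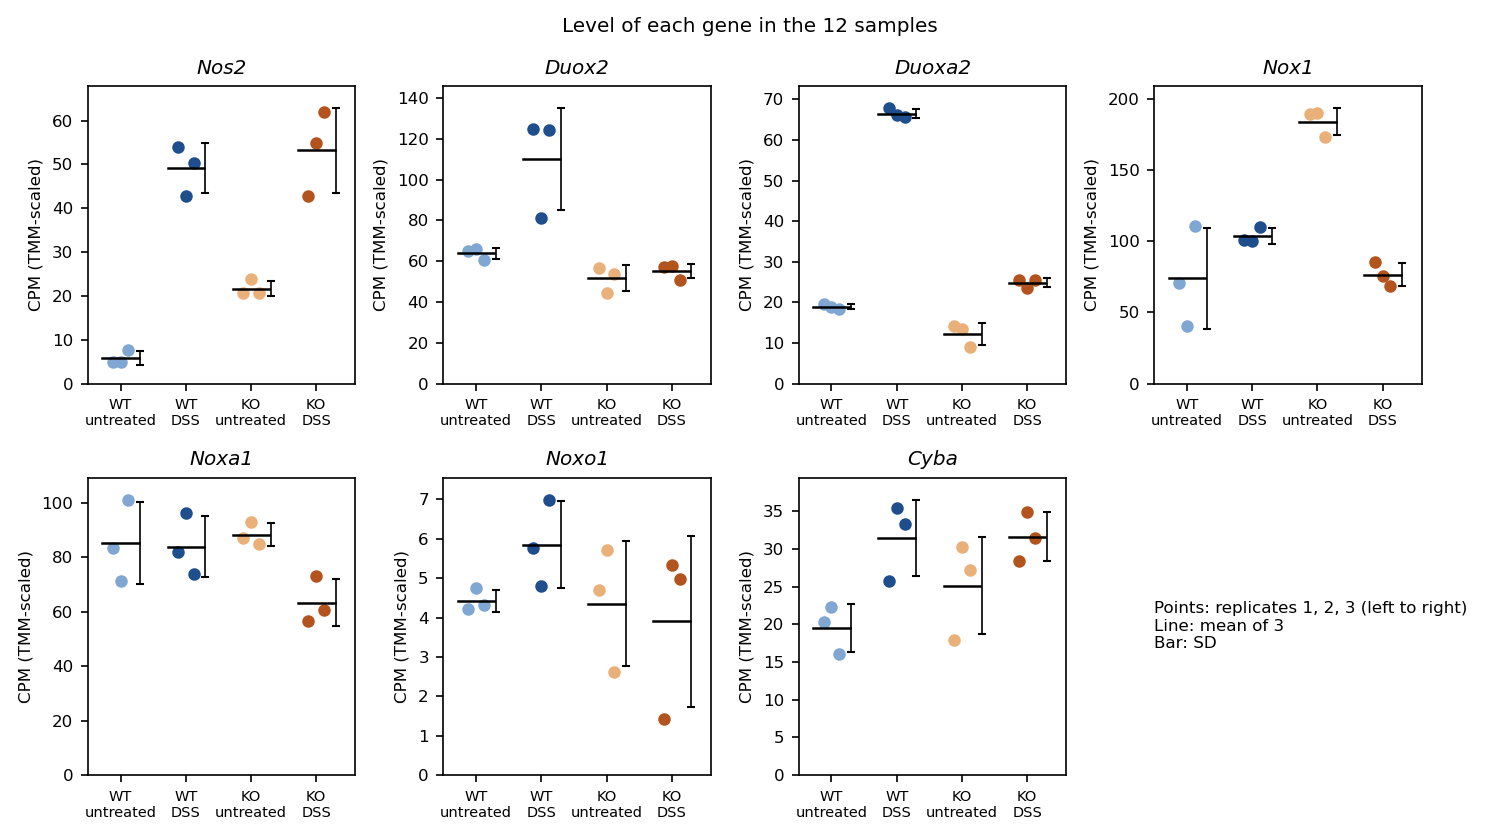
CPM (TMM-scaled) of each of the 7 genes in the 12 samples, by group. Points are replicates, lines are means of 3 and bars are SD. Nos2 and Nox1 were higher in untreated KO than in untreated WT samples, and Duoxa2 was highest in the 3 DSS-treated WT samples.

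In WT cells, 3 of the 7 genes rose under DSS and none fell, beside 2.80% of all genes that rose and 3.50% that fell. In KO cells, 2 rose and 1 fell, beside 1.88% and 2.04%. Between untreated genotypes, 2 were higher in KO and none lower, beside 1.72% and 1.76%. Between the genotypes under DSS, none was higher in KO and 2 were lower, beside 1.77% and 1.34%. The DSS change differed between genotypes for 2 of the 7, both more negative in KO, and for none in the other direction, beside 0.527% and 1.17% of all genes. These comparisons share samples, so they are not independent of each other. RNA from a mixed sample cannot separate fewer cells of a type from less RNA per cell.

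**Figure D2:**
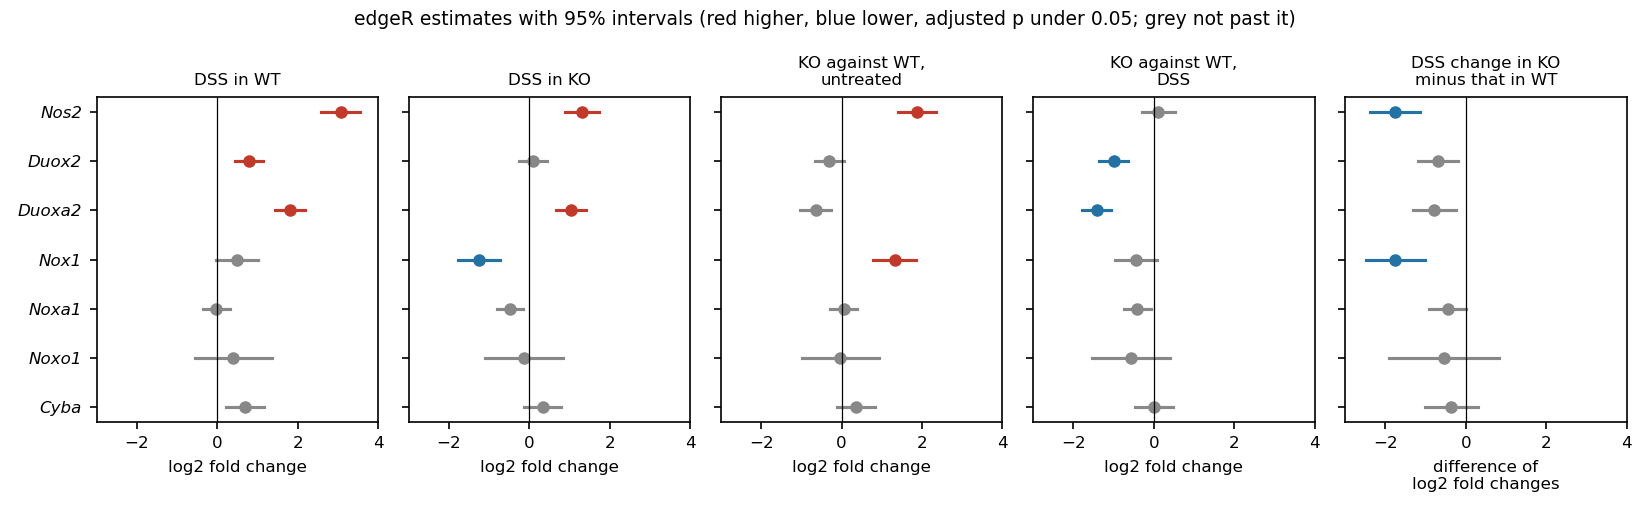
edgeR log2 fold changes (points) with 95% intervals (lines) for each gene in the 4 comparisons of groups, and the difference between the DSS changes of KO and WT in the last panel. Nos2 spans 3.06 in WT and 1.30 in KO under DSS, and Nox1 has opposite signs, 0.49 and -1.27.

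Nos2 (inducible nitric oxide synthase; ENSMUSG00000020826, chr11:78920787-78960254, plus strand, GRCm38) had the lowest untreated WT level of the 3 genes that DSS raised in WT cells, and the largest estimated rise. Its level in untreated WT replicates 1 to 3 was 4.95, 4.91 and 7.71 CPM, from 30 to 50 counts. In untreated KO cells it was 20.6, 23.8 and 20.8 CPM. Every untreated KO sample lay above every untreated WT sample, and the 2 groups were well apart from both DSS groups. Under DSS, Nos2 reached 54.1, 42.8 and 50.4 CPM in WT cells. In KO cells under DSS it reached 42.9, 54.9 and 61.9 CPM. The DSS groups of the 2 genotypes overlapped.

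Under DSS, Nos2 rose 8.36-fold in WT cells (log2 3.06, SE 0.22, edgeR adjusted p = 6.58e-07) and 2.46-fold in KO cells (1.30, SE 0.20, adjusted p = 0.00179). Untreated KO cells held 3.70-fold more Nos2 than untreated WT cells (log2 1.89, SE 0.22, adjusted p = 1.70e-04). Under DSS the genotypes differed by 0.12 on the log2 scale, with a 95% interval from -0.29 to 0.53 (adjusted p = 0.849). The DSS change was smaller in KO than in WT by 1.77 on the log2 scale, given as -1.77 with an SE of 0.29 (adjusted p = 0.00456). The calls for Nos2 held in all 12 fits that left out 1 sample and in the 6 other settings where they could be fitted. Its exons overlap no exon of another gene, and its transcripts share no 50-base stretch with those of another gene.

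Summed levels of pan-leukocyte and macrophage markers differed with genotype and treatment. By group median, macrophage sums rose from untreated WT to untreated KO, WT under DSS and KO under DSS, the same order as the Nos2 means. Pan-leukocyte sums had another order, with untreated KO above WT under DSS. The summed level of 3 pan-leukocyte markers was 9.87 to 24.0 CPM in WT without DSS, 30.1 to 32.9 in WT with DSS, 53.5 to 71.2 in KO without DSS and 77.8 to 104.8 CPM in KO with DSS. All 3 (Ptprc, Coro1a and Laptm5) passed the test as higher in KO, both untreated and under DSS. For the DSS change itself, only Coro1a passed in WT and none passed in KO. For 8 markers of macrophages and monocytes the sums were 4.80 to 7.40, 18.0 to 25.6, 13.6 to 14.6 and 47.4 to 60.4 CPM in the same order, and Adgre1 was at 0 in untreated WT. Of the 6 that could be tested, Lyz2, Adgre1 and Csf1r passed as higher under DSS in WT. Only Lyz2 passed for DSS in KO and between genotypes, untreated and under DSS. Under DSS the KO sums of both lists lay above all WT sums. The T cell markers summed to 1.70 to 6.71, 9.93 to 11.7, 11.4 to 16.5 and 15.5 to 30.7 CPM in the same order of groups. Of the 4 tested T cell markers, Cd4 and Cd3e passed as higher under DSS in WT and Cd3e as higher in untreated KO. No T cell marker passed for DSS in KO or between genotypes under DSS. The other immune lists were not highest in KO under DSS, with neutrophil sums of 18.0 to 60.1, 30.6 to 37.8, 44.1 to 68.5 and 19.4 to 33.7 CPM and B cell sums of 3.08 to 10.04, 10.1 to 15.8, 1.54 to 4.70 and 4.29 to 5.81 CPM. None of the 2 neutrophil markers and the 1 B cell marker that could be tested passed in any comparison. The part of these cells in the Nos2 values was not tested. The stromal and the endothelial markers each summed to at most 4.41 CPM in any sample, with Pdgfra, Lum and Kdr at 0 in all 12.

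**Figure D3:**
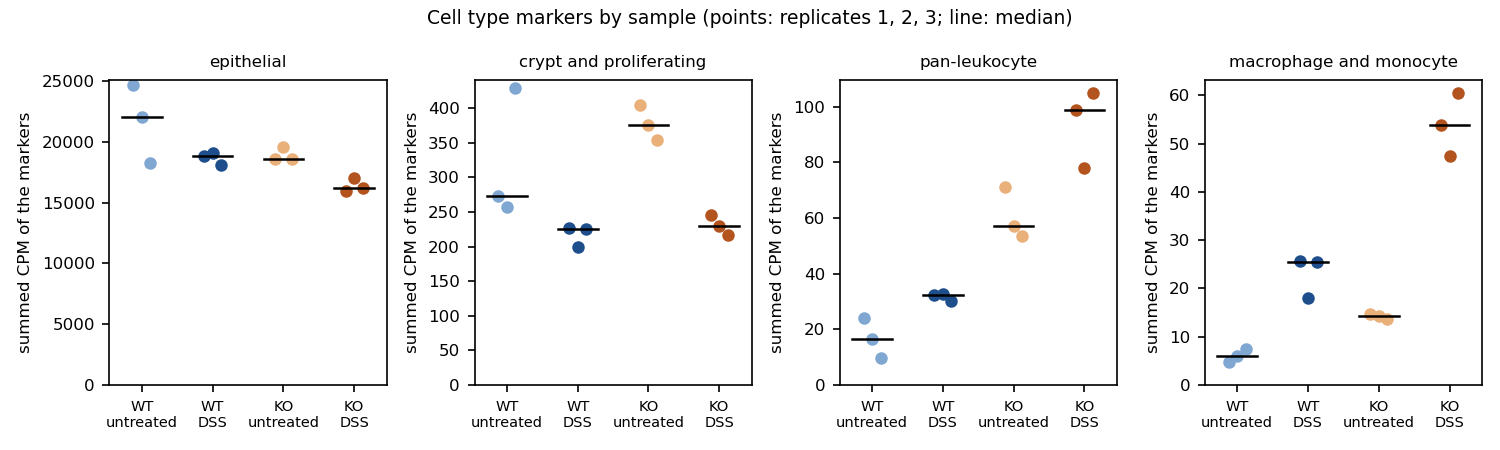
Summed CPM of the epithelial, crypt and proliferating, pan-leukocyte, and macrophage and monocyte markers in each sample (points) with group medians (lines). Leukocyte sums were highest in KO under DSS (77.8 to 104.8 CPM), and crypt sums were highest in untreated KO and in 1 untreated WT sample.

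The Duox2 enzyme and its maturation factor were both higher under DSS in WT cells and both lower in KO than in WT cells under DSS, with larger estimates for Duoxa2 in both comparisons. Duoxa2 (ENSMUSG00000027225, chr2:122298900-122302885, plus strand) stood at 19.6, 18.8 and 18.4 CPM in untreated WT. With DSS it stood at 67.9, 66.1 and 65.6 CPM in WT. The 3 WT samples under DSS lay far above all others and close to each other. In KO cells Duoxa2 was 14.1, 13.4 and 9.01 CPM untreated. It was 25.6, 23.5 and 25.4 CPM in KO cells under DSS. No 2 groups overlapped, and the order from low to high was untreated KO, untreated WT, KO under DSS, WT under DSS.

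Duoxa2 rose 3.51-fold under DSS in WT (log2 1.81, SE 0.18, edgeR adjusted p = 1.23e-05) and 2.04-fold in KO (1.03, SE 0.18, adjusted p = 0.00446). Under DSS, KO cells held 0.374 of the WT level (log2 -1.42, SE 0.17, adjusted p = 2.91e-04). The untreated difference of -0.64 (SE 0.18) did not pass with edgeR (adjusted p = 0.0683), although it did with DESeq2 (-0.65, adjusted p = 0.0175). The difference between the DSS changes, -0.78 with an SE of 0.25, did not pass either (adjusted p = 0.188).

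Duox2 (ENSMUSG00000068452, chr2:122279247-122298449, minus strand) stood at 64.9, 65.8 and 60.8 CPM in untreated WT. In WT under DSS it was 124.7, 81.3 and 124.5 CPM, so replicate 2 was lower than the other two but still above every sample outside its group. KO samples held 56.8, 44.5 and 54.0 CPM untreated and 57.0, 57.6 and 51.0 CPM under DSS. The 2 KO groups overlapped, and each of their 6 samples lay below every WT sample.

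Duox2 rose 1.73-fold under DSS in WT (log2 0.79, SE 0.16, edgeR adjusted p = 0.00849). That call was lost without replicate 1 (0.69, adjusted p = 0.0564) or replicate 3 (0.69, adjusted p = 0.0520) of WT under DSS. In KO the DSS change was 0.09, with an interval from -0.26 to 0.45 (adjusted p = 0.862). Under DSS, KO cells held 0.501 of the WT level (log2 -0.997, SE 0.16, adjusted p = 0.00375). The untreated genotype difference was -0.30 (adjusted p = 0.426). The DSS change in KO minus that in WT was -0.69 (SE 0.23) and did not pass (edgeR adjusted p = 0.222). It did pass without replicate 2 of WT under DSS (-0.88, adjusted p = 0.0464).

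Per kilobase of exon, the Duoxa2 level divided by the Duox2 level was 1.29, 1.22 and 1.28 in untreated WT. Under DSS the WT ratios were 2.32, 3.46 and 2.24. In KO the ratios were 1.06, 1.28 and 0.710 untreated and 1.91, 1.74 and 2.12 under DSS. The ratio was thus higher under DSS without overlap in both genotypes. Over all 12 samples the log2 CPM of the pair correlated with r = 0.84, and after group means were removed r was -0.08. Both values are descriptions from the same 12 libraries. Of the exon bases of Duoxa2, 682 of 1592 also belong to the antisense partner Duoxa1, and the library method keeps no strand. Duoxa1 had 2 to 31 counts per sample against 76 to 497 for Duoxa2. Duoxa1 was 3.88 ± 0.277 CPM (SD, n = 3) in WT under DSS and 1.15 ± 0.392 CPM in KO under DSS, and no comparison of it passed. The relative Duox1 had 0 to 11 counts, with 0 in all 3 untreated KO samples, and shares 6.05% of the 50-base stretches of Duox2.

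Nox1 was higher in untreated KO than in untreated WT cells and fell under DSS in KO cells. The gene (ENSMUSG00000031257, chrX:134086421-134221956, minus strand) was most abundant in untreated KO cells, at 189, 190 and 173 CPM. In untreated WT cells it was 70.4, 40.3 and 111.0 CPM, the widest spread of any group. Each untreated KO sample lay above every other sample. With DSS, WT cells held 100.8, 100.2 and 110.3 CPM. The KO cells under DSS held 85.4, 75.8 and 68.9 CPM, below each WT sample under DSS.

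Nox1 was 2.49-fold higher in untreated KO than in untreated WT cells (log2 1.32, SE 0.24, edgeR adjusted p = 0.00694). When only those 2 groups were fitted, the difference of 1.33 did not pass (adjusted p = 0.0677). In KO cells under DSS the level fell to 0.416 of the untreated one (log2 -1.27, SE 0.24, adjusted p = 0.00905). The WT change under DSS was 0.49 (SE 0.24, adjusted p = 0.326), but without untreated WT replicate 3 it was 0.90 (adjusted p = 0.00857), and with no filter on low counts 0.49 also passed (adjusted p = 0.0386). Under DSS the genotype difference was -0.44, with an interval from -0.96 to 0.08 (adjusted p = 0.448). The DSS change in KO minus that in WT was -1.75 (SE 0.34, edgeR adjusted p = 0.0138). It ranged from -2.17 to -1.46 over the fits that left out 1 sample and passed in each.

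Crypt and proliferation markers (Lgr5, Ascl2, Mki67 and Top2a) summed to 354 to 405 CPM in untreated KO and 217 to 245 CPM in KO under DSS. In WT they summed to 257, 273 and 429 CPM untreated, with the highest value in replicate 3, which also had the highest Nox1 of that group. In WT under DSS they summed to 199 to 227 CPM. Of the 4 markers, 3 fell under DSS in KO (Lgr5, Ascl2 and Top2a) and none passed between the untreated genotypes. The part of these cells in the Nox1 values was not tested. Nox1 also shares 399 of its 3307 exon bases with the antisense gene Cstf2. Cstf2 had 80.1 ± 10.6 CPM in WT without and 85.3 ± 2.29 with DSS, and 117.7 ± 6.76 in KO without and 78.2 ± 13.0 with DSS (SD, n = 3). It passed as higher in untreated KO (log2 0.55, edgeR adjusted p = 0.041) and as lower under DSS in KO (-0.59, adjusted p = 0.027). These Cstf2 calls held in 4 and 8 of the 12 fits that left out 1 sample, with adjusted p values up to 0.159 and 0.107, and were lost with the replicate block (0.0784 and 0.0524). Whether shared reads carried any of the Nox1 difference was not tested.

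The partners of Nox1 did not follow it past the threshold. Noxa1, the activator (ENSMUSG00000036805, chr2:25085667-25095149, minus strand), was at 83.5, 71.2 and 101.2 CPM in untreated WT, at 81.8, 96.1 and 73.7 CPM in WT under DSS and at 87.2, 93.0 and 84.8 CPM in untreated KO. In KO under DSS it was at 56.4, 73.1 and 60.4 CPM, below every untreated KO and every DSS-treated WT sample. The change under DSS in KO was -0.48 (SE 0.15, edgeR adjusted p = 0.112), and the genotype difference under DSS was -0.41 (adjusted p = 0.213).

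Cyba, which encodes p22phox (ENSMUSG00000006519, chr8:122424776-122432930, minus strand), was at 20.4, 22.3 and 16.0 CPM in untreated WT and at 25.8, 35.4 and 33.4 CPM in WT under DSS. These groups did not overlap, but the change of 0.69 (SE 0.22) did not pass with edgeR (adjusted p = 0.0905) and passed with DESeq2 (0.69, adjusted p = 0.0480). KO samples held 17.9, 30.3 and 27.3 CPM untreated and 28.4, 34.9 and 31.5 CPM under DSS, and these groups overlapped.

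Noxo1, the organizer (ENSMUSG00000019320, chr17:24696234-24700529, plus strand), had low counts, from 8 to 47 per sample, all above the floor of 3. It had 29, 29 and 28 counts in untreated WT, 38, 36 and 43 in WT under DSS, and 35, 47 and 22 in untreated KO. KO samples under DSS had 8, 36 and 36 counts, with replicate 1 lowest of all 12. Its 95% intervals were wide, from -0.57 to 1.36 for DSS in WT and from -1.11 to 0.83 for DSS in KO. Of its 3013 exon bases, 2122 also belong to Tbl3 on the opposite strand, which stood at 42.9 to 52.5 CPM on average in the 4 groups and did not pass in any comparison.

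Scaled by exon length, the Nox1 activator was the most abundant of the 7 transcripts in 3 of 4 groups when all exon bases were counted as length, and in 2 of 4 groups when bases shared with other genes were left out. In untreated WT cells, CPM per kilobase was 52.8 ± 9.30 for Noxa1, 22.4 ± 10.7 for Nox1, 18.8 ± 3.07 for Cyba, 11.9 ± 0.411 for Duoxa2, 9.43 ± 0.399 for Duox2, 1.47 ± 0.0934 for Noxo1 and 1.33 ± 0.364 for Nos2 (SD, n = 3). Nox1 and Cyba, and Noxo1 and Nos2, were neighbours in this order whose means differed by less than the larger SD of the pair. In WT under DSS, Duoxa2 stood second at 41.8 ± 0.760 per kilobase behind Noxa1 at 51.9 ± 7.00, and Nos2 passed Noxo1 with 11.1 ± 1.30 against 1.94 ± 0.367. Nox1 (31.4 ± 1.72) and Cyba (30.3 ± 4.89) again differed by less than either SD, with Duox2 next at 16.3 ± 3.69.

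In untreated KO cells Nox1 (55.7 ± 2.90) and Noxa1 (54.6 ± 2.59) differed by less than either SD at the top, followed by Cyba at 24.2 ± 6.25. Duoxa2 (7.65 ± 1.73) and Duox2 (7.64 ± 0.956) were equal within their SD, Nos2 was at 4.92 ± 0.406 and Noxo1 at 1.44 ± 0.527. With DSS the KO order was Noxa1 (39.2 ± 5.38), Cyba (30.4 ± 3.14), Nox1 (23.2 ± 2.51), Duoxa2 (15.6 ± 0.719), Nos2 (12.1 ± 2.19), Duox2 (8.15 ± 0.535) and Noxo1 (1.30 ± 0.719). Nos2 thus stood above Duox2 per kilobase in KO under DSS and below it in the other 3 groups. The per-kilobase ratio of Noxa1 to Nox1 in WT was 1.86 to 3.62 without and 1.37 to 1.96 with DSS, and in KO 0.942 to 1.001 without and 1.35 to 1.97 with DSS. The untreated KO ratios lay below all others. If only exon bases that belong to no other gene are counted as length, Noxo1 rises to 4.97, 6.56, 4.88 and 4.38 per kilobase in WT without and with DSS and KO without and with DSS, and Duoxa2 to 20.8, 73.1, 13.4 and 27.3. The order then turns in 2 groups. Duoxa2 stands above Noxa1 (53.5) in DSS-treated WT, and in untreated KO Nox1 (63.4 ± 3.29) stands above Noxa1 (56.4 ± 2.68) by more than either SD.

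**Figure D4:**
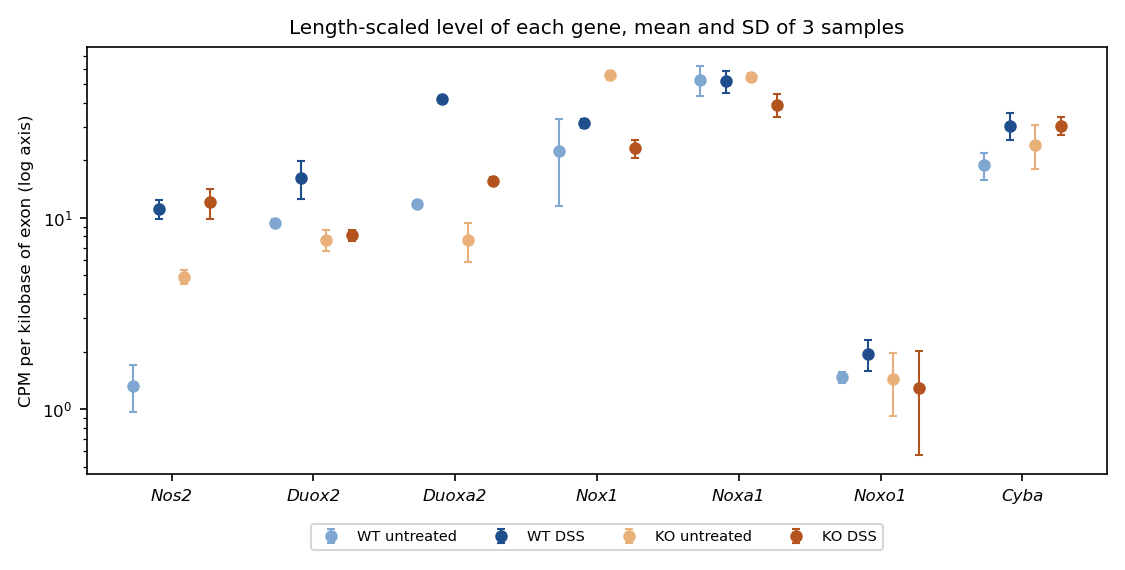
CPM per kilobase of exon on a log axis for each gene in the 4 groups, as mean and SD of 3 samples. Noxa1 stays between 39.2 and 54.6, whereas Nos2 runs from 1.33 to 12.1 and Duoxa2 from 7.65 to 41.8.

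The other nitric oxide synthases did not exceed the floor of 3 counts. Nos1, the neuronal form, had 3 counts in 1 WT sample under DSS and 0 in the other 11, and Nos3, the endothelial form, had 0 to 2 counts. Among 12 tested relatives and regulators of the NADPH oxidases, Cybb rose under DSS in both genotypes and Cybb and Rac2 were higher in untreated KO, with none lower in any comparison. The medians were 0.85, 0.28, 0.20, 0.13 and -0.38 (log2) for DSS in WT, DSS in KO, the genotypes untreated, the genotypes under DSS and the difference of DSS changes. Medians over all genes tested were between -0.01 and 0.02, and 1.17% to 2.80% of them were called higher and 0.527% to 3.50% lower. A count of 0 lower among 12 is near this background. Cybb, the catalytic subunit of phagocytes, had 1, 6 and 0 counts in untreated WT, 26, 23 and 28 in DSS-treated WT, 27, 10 and 26 in untreated KO and 80, 78 and 78 in DSS-treated KO. Its DSS change in WT was 3.34 (SE 0.71, edgeR adjusted p = 0.010) and held in all 12 fits without 1 sample, with estimates from 2.77 to 5.38. The DSS change in KO (2.20, adjusted p = 0.0341) and the untreated difference (2.80, adjusted p = 0.0469) held in only 5 and 2 of those 12, with adjusted p values up to 0.141 and 0.145. With the replicate block both were lost (adjusted p = 0.0660 and 0.0955), and with the 2 compared groups only the DSS change in WT was lost (adjusted p = 0.0604). Cybb thus moved with the macrophage sums given above, and its source was not tested.

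Rac2, a GTPase of blood cells that activates the phagocyte oxidase, had 24, 27 and 1 counts in untreated WT and 106, 109 and 110 in untreated KO (log2 2.33, edgeR adjusted p = 0.0253). This call held in 8 of 12 fits without 1 sample, with adjusted p values up to 0.074, and was lost with the 2 compared groups only (adjusted p = 0.140). Ncf1, the counterpart of Noxo1, had 0 to 20 counts and Ncf4 had 0 to 31 counts, and neither passed.

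Of 19 tested genes for the supply and handling of nitric oxide, none rose in any comparison, beside 1.17% to 2.80% of all genes called higher, so that a count of 0 is near the background. Ddah1, which breaks down methylated arginines that inhibit nitric oxide synthases, was lower in KO both untreated (-0.93, edgeR adjusted p = 3.46e-04) and under DSS (-0.90, adjusted p = 5.93e-04). Its level was 178, 173 and 148 CPM in untreated WT, 141, 147 and 177 in DSS-treated WT, 88.5, 90.9 and 82.1 in untreated KO and 87.0, 80.7 and 80.7 in DSS-treated KO. Every KO sample lay below every WT sample, and both calls held in all 12 fits without 1 sample. Nostrin (-0.70), a trafficking partner of the endothelial synthase, and Adh5 (-0.49), which breaks down S-nitrosoglutathione, fell under DSS in WT. Each of these calls held in 7 of 12 such fits, with adjusted p values up to 0.118 and 0.107. That of Adh5 was also lost with the replicate block (adjusted p = 0.0545) and with the 2 compared groups only (0.0954). The medians of this list were -0.10, -0.03, -0.12, -0.13 and 0.02 in the order given for the oxidase relatives.

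Among 15 tested genes that dispose of superoxide and peroxide, Lpo, a peroxidase that uses hydrogen peroxide, fell under DSS in both genotypes. Lpo was at 55.0, 50.1 and 55.1 CPM in untreated WT and 21.2, 17.0 and 17.7 under DSS (log2 -1.52, edgeR adjusted p = 3.30e-05), and at 46.2, 45.3 and 42.8 in untreated KO and 26.3, 19.4 and 20.7 under DSS (-1.02, adjusted p = 0.00251). Prdx6, a peroxiredoxin, was the single member of this list whose DSS change differed between genotypes (-0.93, edgeR adjusted p = 0.0117). It was 0.55 higher in untreated KO than in untreated WT and fell by 0.65 under DSS in KO, while its DSS change in WT was 0.29 without passing. The untreated call held in 9 of 12 fits without 1 sample (adjusted p up to 0.0977) and was lost with the 2 compared groups only (0.146), and the other Prdx6 calls in all 12. Gpx2, the glutathione peroxidase of the gut epithelium, was lower in KO under DSS (-0.63), a call that held in 5 of 12 (adjusted p up to 0.155). Medians of the list were 0.01, -0.23, 0.05, -0.07 and -0.13 in the same order. Over all genes, 3.50% fell under DSS in WT and 2.04% in KO, and 0.527% had a DSS change more negative in KO. Between genotypes, 1.72% were higher in untreated KO and 1.34% lower in KO under DSS.

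Of the 8 genes that supply NADPH, all were tested and 1 passed. Over all genes, 3.50% were called lower for DSS in WT and 1.76% between the untreated genotypes. Me1, the cytosolic malic enzyme, fell by 1.48 on the log2 scale under DSS in WT and was also 1.48 lower, at -1.48, in untreated KO than in untreated WT. It was at 33.2, 36.8 and 24.7 CPM in untreated WT, 11.1, 10.5 and 12.4 in DSS-treated WT, 9.67, 7.80 and 16.5 in untreated KO and 11.6, 8.88 and 9.68 in DSS-treated KO. The 3 untreated WT samples lay above all 9 others, and both calls held in all 12 fits without 1 sample (edgeR adjusted p = 0.00334 and 0.00645 with all samples). The untreated one was lost with the 2 compared groups only (0.0618). Medians of the 8 were -0.02, -0.12, -0.09, -0.16 and -0.09.

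Of 16 tested cytokines, receptors and factors known to induce Nos2 or Duox2, 3 rose under DSS in WT (Tnf, Irf1 and Stat3). In KO 4 rose, among them Il1b, Irf1 and Stat3, and none fell in either genotype. Over all genes, 2.80% rose and 3.50% fell under DSS in WT, and 1.88% rose and 2.04% fell in KO. A count of 0 that fell is near this background. Tnf, a cytokine that activates NF-kB, was the single gene of this list that passed between genotypes. It was at 3.64, 4.09 and 2.47 CPM in untreated WT, 31.2, 30.3 and 32.1 in DSS-treated WT, 11.6, 15.0 and 15.9 in untreated KO and 9.00, 9.77 and 12.3 in DSS-treated KO. Tnf was thus higher in untreated KO than in untreated WT (log2 2.05) and lower in KO than in WT under DSS (-1.59), and the difference of DSS changes was -3.64 (edgeR adjusted p = 5.54e-05). All 4 Tnf calls, with the DSS change in WT of 3.19, held in all 12 fits without 1 sample. Irf1 and Stat3, transcription factors of the interferon and STAT3 cytokine responses, changed by 0.52 and 0.39 in WT and by 0.53 and 0.41 in KO. The Irf1 call in WT held in all 12 fits and the one in KO in 11 (adjusted p up to 0.0634). Those of Stat3 held in 9 in WT and 7 in KO (adjusted p up to 0.0802 and 0.108), and that of Il1b in 7 (adjusted p up to 0.151). The Stat3 call in WT was lost with the 2 compared groups only (0.0806), the one in KO without a filter on low counts, and that of Il1b with the replicate block (0.0761). Il22 had no counts, and Il17a had 2 counts in 1 sample and 1 in another. Medians of this list were 0.17, 0.25, -0.01, 0.08 and 0.06.

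**Figure D5:**
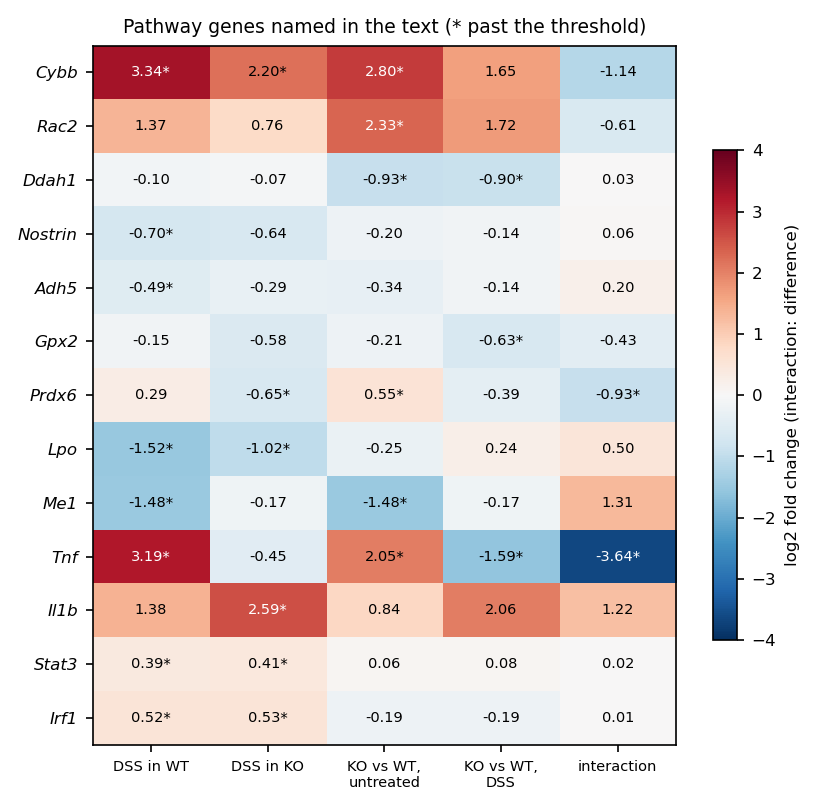
edgeR log2 fold changes of the pathway genes named in the text, with an asterisk where a gene passed the threshold and with the difference of DSS changes, KO minus WT, in the last column. Cybb is positive in all 4 comparisons of groups and passed in 3 of them, and Tnf runs from 3.19 for DSS in WT to -3.64 for the difference.

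The genes whose log2 CPM tracked each of the 7 most closely over the 12 samples, among 8860 or 8861 tested genes averaging 3 or more in log2 CPM, differed from gene to gene. For Nos2 they were Apobec3 (r = 0.98), Junb (0.97) and Gbp2 (0.97). For Duoxa2 they were Lrg1 (0.98), Hbegf (0.97) and Nfkbiz (0.96), and for Duox2 Hyou1 (0.95), Ssh2 (0.94) and Tc2n (0.92). Nox1 was followed most closely by Mybbp1a (0.91), Hmgn2 (0.91) and Rcl1 (0.91). The closest for Noxa1 were Cct3, Cdc6 and Tsc22d4 (each 0.91), for Cyba Nagk (0.92), Ccdc14 (0.91) and Arsk (0.90), and for Noxo1 BC003965 (0.89), Casp1 (0.86) and Zc2hc1a (0.83). These values describe 12 libraries that share 4 groups and were picked as the highest of many.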

How the data were processed

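RNA sequencing libraries of the 12 samples were made by the SMART-seq2 method, per the labels' protocols. The authors deposited raw read counts per gene. STAR 2.5.2b, featureCounts 1.5.0 and the build GRCm38 (mm10) are named in the submitters' processing notes. The annotation and the handling of strand and of reads in overlapping genes are not given in the sources used here. Of 46517 gene IDs, 46005 were matched without their version to GENCODE M21 (GRCm38), the source of symbols, coordinates and exon lengths.

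Counts were fitted with edgeR 4.0.16 in R 4.3.3 over all 12 samples, with 1 coefficient per group, TMM scaling and filterByExpr (12522 genes holding 99.8% of counts). The common biological coefficient of variation was 0.227. Contrasts were tested two-sided by the quasi-likelihood F test with Benjamini-Hochberg adjustment over all genes tested, and a call is an adjusted p under 0.05. Log2 CPM used a prior count of 2. The fit was tested on simulated data. The floor of 3 counts covers counting error only, since PCR copies without molecular identifiers are not independent molecules.

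Named genes are the 7 members, their paralogues, genes of 5 lists that passed in at least 1 comparison (a few of these are left out of the text), and for each member the 3 genes most correlated with it. Cstf2 and Tbl3 were added after their values were seen, as exon neighbours. Members and lists were chosen with earlier results of these data known. Alternatives were DESeq2 size factors, DESeq2 1.42.0, 2 other filters, a replicate block, the 2 compared groups only and leaving out each sample. The exon length without bases shared with other genes was an alternative chosen after seeing the data.

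The titles number the samples 1 to 3 in each group. Deviations from group means correlated over genes between same-numbered samples with r = 0.20, 0.11 and 0.13 for DSS in KO. All were over 0.1, the mark used for treating the numbers as pairs. The titles state no pairing. Library numbers alternate between untreated and DSS samples of the same number in both genotypes. WT replicate 1 has 8519 untreated and 8520 under DSS, and KO replicate 1 has 8525 and 8526. Between the untreated genotypes r of -0.17 and -0.18 occurred, which cannot speak to a pairing within a genotype. Whether the samples are paired was not settled. Printed values come from the fit without the block, and the block was an alternative. The check was not met in the other comparisons, where the lowest r was 0.01 for DSS in WT, -0.18 untreated and -0.12 under DSS.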

Additional observations from a re-analysis of the deposited data

Results flagged for a closer look

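The DSS change differed between genotypes for 2 of the 7 genes by the test of the difference itself (edgeR, adjusted over all genes tested). For Nos2 the difference, KO minus WT, was -1.77 (log2; adjusted p = 0.00456), from a change of 3.06 in WT and 1.30 in KO. For Nox1 it was -1.75 (adjusted p = 0.0138), from 0.49 in WT and -1.27 in KO. Over the fits without 1 sample the 2 differences ranged from -2.02 to -1.64 and from -2.17 to -1.46, and both calls held in each.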

How the results depend on the processing

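All results of Nos2, Duoxa2 and Nox1 that were past the threshold stayed past it in the fits that left out 1 sample. The DSS change of Nox1 in WT, not past it with all samples, passed without untreated WT replicate 3 (0.90, edgeR adjusted p = 0.00857). Exceptions under other settings are given with the genes above. Between untreated genotypes, 1 member was higher with the 2 compared groups only (Nox1 lost) and 1 was lower with DESeq2 (Duoxa2 gained). The replicate block changed no call of the 7 genes (Nox1 under DSS in KO, -1.27). Without a filter, with DESeq2 and with the 2 compared groups only, the count over all genes went from 491 to 776 and 800 (DSS in KO, no filter and DESeq2), from 213 to 356 and 360 (difference of DSS changes), from 390 to 642 and 661 (genotypes under DSS), from 436 to 703, 790 and 195 (genotypes untreated) and, for the 2 groups only, from 789 to 467 (DSS in WT). Over the fits without 1 sample these counts ranged from 235 to 710, 152 to 350, 160 to 566, 212 to 725 and 483 to 958. Of the listed genes, those past the threshold at least once went from 2 to 4 without a filter among oxidase relatives (1 to 3 without 1 sample), from 1 to 2 without a filter and 3 with DESeq2 for NADPH supply (1 to 3), and for nitric oxide supply from 4 to between 2 and 4 without 1 sample. The cause was not tested.

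Changes near 0 turned sign without 1 sample. The ranges were -0.0083 to 0.16 (Duox2) and -0.41 to 0.24 (Noxo1) for DSS in KO, -0.14 to 0.12 (Noxa1) for DSS in WT, -0.12 to 0.10 (Cyba) and -0.0056 to 0.25 (Nos2) for the genotypes under DSS, and -0.068 to 0.19 (Noxa1) and -0.28 to 0.24 (Noxo1) untreated. With at least 1 CPM in 3 samples, Cyba under DSS was -1.715e-04 between genotypes. Noxo1 had 8 to 47 counts per sample.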
